A study of Homo sapiens with 6 samples.

Results

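Interferon-stimulated genes were examined in MH7A cells, an immortalised human line derived from synovial fibroblasts of a patient with rheumatoid arthritis. The set held 31 named genes, taken by symbol from a deposited RNA-seq table of 19475 gene symbols, and all 31 were found and passed the filter on low counts. TNFα was present in every sample, at 10 ng/ml. The TNF group had 3 libraries (replicates 2, 8 and 14, written TNF 2, TNF 8 and TNF 14). The TNF plus LED group had the other 3 (replicates 4, 6 and 10, written LED 4, LED 6 and LED 10), from cells also exposed to 630 nm LED light for 15 min, 3 times. No group without TNFα was analysed here, and both groups are the same single cell line.

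Many interferon-stimulated genes are switched on when a type I or type III interferon binds its receptor and the kinases JAK1 and TYK2 phosphorylate STAT proteins. Some of the genes described below also respond to IFN-γ. STAT2 acts with IRF9 in the complex ISGF3, which binds the interferon-stimulated response element (ISRE). The gamma-activated site (GAS) is the other DNA element best known from interferon responses. The products restrict viral RNA and replication, sense foreign RNA, present antigen or feed back on the pathway, and an interferon signature of such genes is a known feature of rheumatoid synovium, where TNFα can induce IFN-β in synovial fibroblasts.

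Promoter sequence is shown first because the ISRE core was found in most of the promoters that could be searched. RefSeq promoters of build GRCh38.p14 were matched for 24 of the 31 genes, and the 250 bases before each gene start were searched on both strands. No promoter was matched for IFIT2, OAS2, OASL, MX2, USP18, IRF7 and GBP2. The ISRE core was spelled GAAA, any 2 bases, then GAAA. It was present in 16 of the 24 genes (66.7%), against 3.02% of 35116 promoter windows of the same length. It was not found for OAS1, DDX58, STAT2, IRF1, IRF9, IFI35, XAF1 and TAP1. The GAS core, TTC, any 3 bases, then GAA, was present in 8 of the 24 (33.3%), against 6.57% of all windows, and it overlapped an ISRE core in 3 genes, MX1, BST2 and IFI27. A match describes letters and not a bound site. The stretches below, written in the direction of each gene and 5′ to 3′, belong to genes whose values are described further on, and capitals mark letters that match the ISRE core or its reverse complement. IFIT1 lies at chr10:89392495-89392554 (plus strand), IFIT3 at chr10:89332453-89332512 (plus), RSAD2 at chr2:6877607-6877666 (plus), MX1 at chr21:41431829-41431888 (plus), IFI27 at chr14:94110616-94110675 (plus), IFI6 at chr1:27672251-27672310 (minus), IFI44L at chr1:78620350-78620409 (plus), ISG20 at chr15:88638922-88638981 (plus) and ISG15 at chr1:1013365-1013424 (plus), where 2 matches overlap.
IFIT1: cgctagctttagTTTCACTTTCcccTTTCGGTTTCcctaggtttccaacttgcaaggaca
IFIT3: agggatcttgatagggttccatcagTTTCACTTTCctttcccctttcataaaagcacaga
RSAD2: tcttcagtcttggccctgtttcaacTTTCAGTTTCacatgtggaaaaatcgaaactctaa
MX1: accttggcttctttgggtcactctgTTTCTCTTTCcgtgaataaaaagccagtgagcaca
IFI27: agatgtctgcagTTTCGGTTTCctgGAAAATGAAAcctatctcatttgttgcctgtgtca
IFI6: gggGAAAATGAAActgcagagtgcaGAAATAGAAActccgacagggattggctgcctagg
IFI44L: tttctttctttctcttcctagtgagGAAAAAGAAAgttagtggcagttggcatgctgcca
ISG20: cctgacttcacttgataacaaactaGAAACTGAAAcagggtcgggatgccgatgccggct
ISG15: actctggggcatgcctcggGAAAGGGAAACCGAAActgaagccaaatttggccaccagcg

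The libraries held 86000253 (TNF 14) to 108074289 (LED 6) units of estimated count, and 14079 to 14943 genes were above 0. Levels are given as CPM, the count scaled to a common library total with TMM factors, and about 4 units corresponded to 1 sequenced fragment. A count of 0 allows up to 3 fragments, or 0.108 to 0.138 CPM by library, which covers counting error only. Of 14 synovial fibroblast markers, 13 were tested and none was called, with 7 fitted lower and 6 higher. The summed level was 33600 to 35800 CPM in TNF and 28800 to 30800 CPM with LED. COL1A1 made the largest part of the sum, with means of 13120 CPM in TNF and 9810 CPM with LED. It was lower in every LED library than in any TNF library, while FAP was higher in every LED library. The 14 leukocyte markers summed to 93 to 138 CPM in TNF and 115 to 154 CPM with LED, nearly all of it CD68, with CD3D, CD3E, MS4A1, FCGR3A and CLEC4C at 0 in all 6 libraries and PTPRC above 0 in 1, LED 4. Of that list 4 were tested and none was called. IL3RA was the 1 with non-overlapping groups, at 0.0359, 0 and 0.0577 CPM in TNF and 0.491, 0.457 and 0.249 CPM with LED (edgeR adjusted p = 0.0625). The TNF levels of IL3RA all lay under the limit that a count of 0 allows. IL3RA passed the filter on low counts only through the LED group, so its values are given as a description. The 9 endothelial and epithelial markers summed to 41 to 47.7 CPM in TNF and 45.5 to 67 CPM with LED, with CDH5 at 0 throughout. None of the 4 tested was called, and VWF and KRT8 were higher in every LED library than in any TNF library (edgeR adjusted p = 0.13 and 0.361). Beside the counts in these marker lists, 5.17% of all tested genes were called, and 16.2% had non-overlapping groups in each direction. The part of these markers in the results was not tested. Separate cultures are not stated in the labels, and the p-values below therefore rest on the spread among these 6 libraries alone, which may be technical. By a chi-square statistic of the deposited units, from which no p was taken, TNF 8 and LED 6 stood apart within their own groups. The value per degree of freedom was 367 and 497 for TNF 8 with the other TNF libraries against 102 between those, and 286 and 426 for LED 6 against 103. Between groups it was 294 for TNF 2 with LED 10 and 310 for TNF 14 with LED 10. The other pairs between groups had 437 to 1120. In bulk RNA, fewer cells making a transcript and less transcript per cell cannot be told apart.

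None of the 31 genes was called changed with LED by edgeR's quasi-likelihood test at an adjusted p of 0.05, while 713 of 13794 tested genes (5.17%) were called in either direction, 2.44% higher and 2.73% lower. At an unadjusted p under 0.05 there were 4 of the 31, IFIT2 and IRF9 higher and MX1 and ISG20 lower, against 22.7% of all tested genes (10.9% higher, 11.8% lower). Adjusted p-values from edgeR ran from 0.112 to 0.937 with a median of 0.498. The fitted log2 fold change (LED over TNF) was below 0 in 24 genes (49.2% of all tested genes) and above 0 in 7 (50.8% of all tested genes). Its median was -0.28 against 0.01 over all tested genes, and it ranged from -0.87 (ISG20) to 0.75 (IRF9). With DESeq2, IFIT2 and IRF9 were called higher, at adjusted p = 0.0361 and 0.034, where 12.7% of all genes were called; limma-voom called none of the 31 (4.78% of all genes). The 95% interval of the fold change lay within a 2-fold change either way in 16 of the 31 genes (59.8% of all tested genes) and included 0 in 27 (77.3% of all tested genes).

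**Figure D1:**
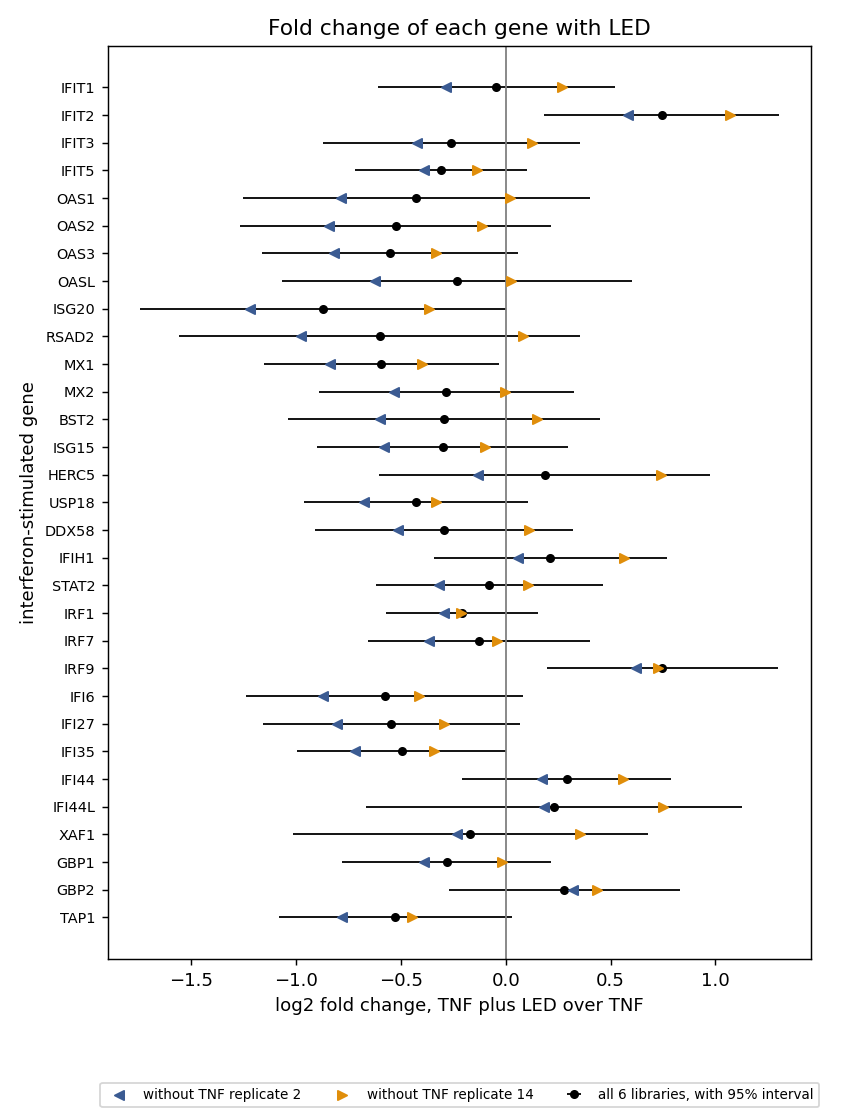
Fitted log2 fold change (LED over TNF, horizontal axis) of each of the 31 genes, grouped by role, with 95% intervals over all 6 libraries and the fitted value without TNF 2 and without TNF 14 as separate points. Most genes sit left of 0, with a median of -0.28, while IFIT2 and IRF9 sit to the right at 0.74 and 0.75.

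The spread inside the TNF group was larger than the difference between the groups for 30 of the 31 genes, all but IRF9. Over all tested genes 70.6% had this property, and without TNF 2 the count was 14 of 31. The range was taken as the highest minus the lowest log2(CPM + 1) of the 3 libraries, and the difference as that of the group means on the same scale. The median range was 1.02 within TNF (all genes 0.42) and 0.39 within LED (all genes 0.34), and the median size of the difference was 0.29 (all genes 0.24). The range in TNF was wider than the range in LED in 30 of the 31 genes, all but IRF9, against 59.5% of all genes. The highest TNF library was at least 2-fold above the lowest in 16 of the 31 genes (8.76% of all genes), and no gene reached 2-fold within LED (3.53% of all genes). In CPM, the highest library was 2.07 times the lowest at the median gene in TNF (1.23 to 4.02) and 1.32 times in LED (1.04 to 1.84).

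**Figure D2:**
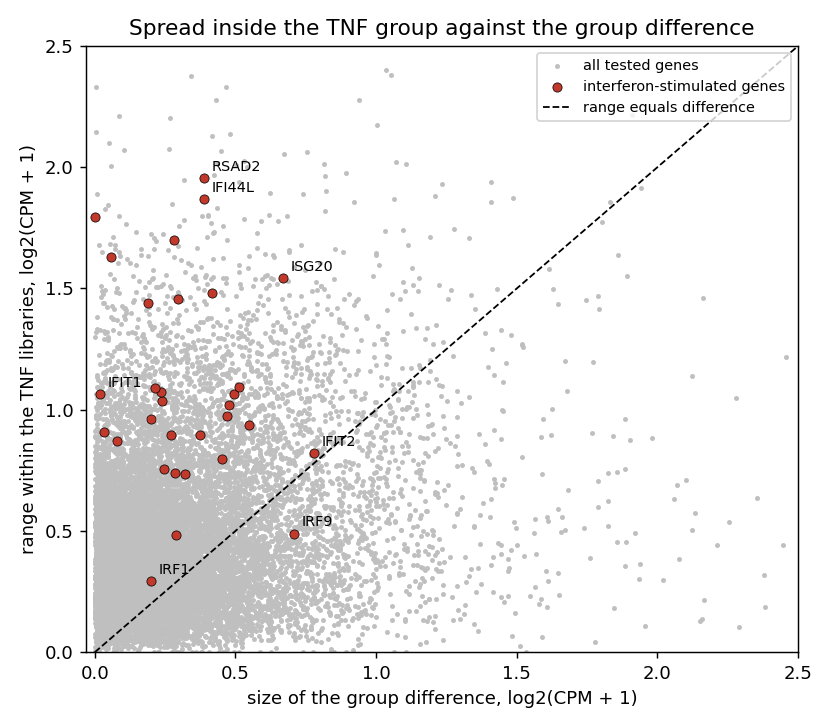
Range within the TNF group (vertical axis, log2 CPM + 1) against the size of the difference between group means (horizontal axis, same scale) for all tested genes and the 31 interferon-stimulated genes, with the line of equality; 32 tested genes lie beyond the axes, which end at 2.5. Of the 31 genes, 30 lie above the line and IRF9 lies below it.

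The spread had a direction, and it ran by library. TNF 14 was the highest of all 6 libraries for 23 of the 31 genes (10.9% of all genes) and above every LED library for 28 (33.4% of all genes). TNF 2 was the lowest of all 6 for 16 of the 31 (13.1% of all genes) and below every LED library for 19 (31.3% of all genes). TNF 14 exceeded TNF 2 in all 31 genes, by 1.1 to 4.02 times with a median of 1.88. TNF 8 was less uniform. It was the highest of the 6 for 5 genes (USP18, IRF1, IRF7, IFI6 and TAP1; 28.7% of all genes) and the lowest of the TNF libraries for 8 (IFIT3, IFIT5, IFIH1, IFI44, IFI44L, XAF1, GBP1 and GBP2; 42.5% of all genes). The median deviation of the 31 genes from their own mean over libraries, in log2(CPM + 1), was -0.39 in TNF 2, 0.17 in TNF 8 and 0.59 in TNF 14, and -0.23, -0.17 and 0.04 in LED 4, LED 6 and LED 10. The same median over all tested genes lay within 0.01 of 0 in each library. TNF 14 was also the library with the smallest total, and the part of depth in the result was not tested.

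**Figure D3:**
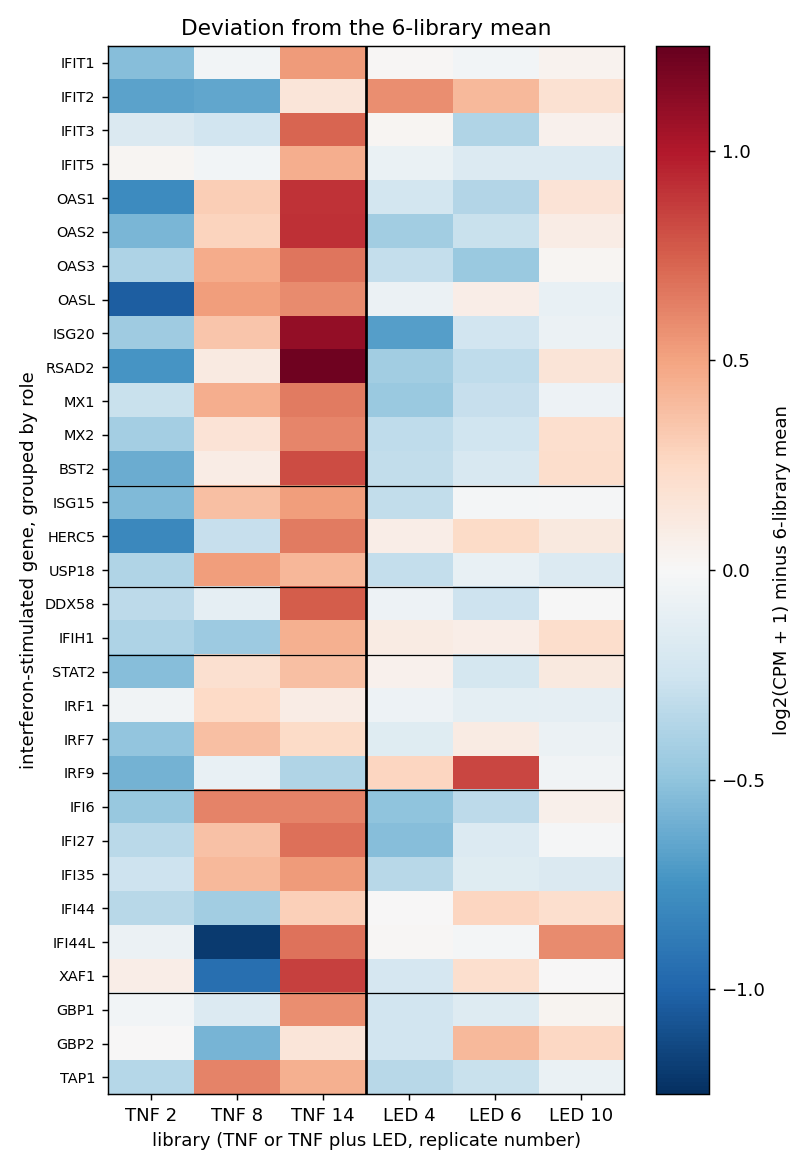
Deviation of log2(CPM + 1) from the gene's mean over 6 libraries (colour), for the 31 genes (rows, by role) in each library (columns). The TNF 14 column is above the mean for 30 of 31 genes and the TNF 2 column below it for 28, while the 3 LED columns have median deviations closer to 0.

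Because the range ran between libraries of 1 group, the fit was repeated without each library. Without TNF 14 the median log2 fold change of the 31 genes was 0.02 in place of -0.28, 15 were fitted lower, none was called (0.804% of all genes), and 7 genes had all LED libraries above the remaining TNF libraries (18.9% of all genes): IFIT1, IFIT2, HERC5, IFIH1, IRF9, IFI44 and IFI44L. An unadjusted edgeR p under 0.05 was then reached by 5 higher and 0 lower, against 1229 higher and 1226 lower of 14049 tested genes. Without TNF 2 the median was -0.51, 25 were fitted lower, none was called (5.25% of all genes), and 16 genes had all LED libraries below the remaining TNF libraries (22.2% of all genes). At an unadjusted p under 0.05 there were then 13 lower (11.9% of all genes) and 1 higher (11.6% of all genes). The TNF range then exceeded the difference for 14 of the 31 genes in place of 30, against 53.3% of all genes. The lower median with LED in the full comparison therefore did not hold without TNF 14. Leaving out TNF 8 or any LED library gave medians of -0.35 to -0.21. Without TNF 8 and LED 6 together, the libraries that stood apart, the median was -0.30 and IRF9 was called higher (edgeR adjusted p = 0.0311), with 12% of all genes called.

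The largest role group was that of the effectors that act on viral RNA or replication, with 13 genes. None was called, 12 were fitted lower with a median of -0.31, and TNF 14 was the highest of the 6 libraries for 12. MX1, a dynamin-like GTPase that blocks viral ribonucleoproteins, was at 512, 855 and 981 CPM in TNF 2, TNF 8 and TNF 14, and at 451, 509 and 597 CPM in LED 4, LED 6 and LED 10. The TNF 2 level lay inside the LED range, while TNF 8 and TNF 14 lay above it. The log2 fold change of MX1 was -0.59 ± 0.25 (SE, edgeR adjusted p = 0.195), from group means of 783 ± 242 and 519 ± 73.2 CPM (SD, n = 3 each). ISG20, a 3′ to 5′ exonuclease that degrades viral RNA, was at 5.65, 10.5 and 18.4 CPM in TNF (libraries always in that order) and at 4.61, 6.65 and 7.61 CPM with LED. Its groups overlapped through TNF 2, and the log2 fold change was -0.87 ± 0.39 (SE, edgeR adjusted p = 0.22). OAS3, which makes the 2′-5′ oligoadenylates that activate RNase L, was at 229, 413 and 479 CPM in TNF and at 244, 217 and 305 CPM with LED. TNF 2 again fell among the LED libraries, and the log2 fold change was -0.55 ± 0.27 (SE, edgeR adjusted p = 0.269).

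TNF 2 was the low library and TNF 14 the high library in 3 more effectors, chosen for their wide ranges within TNF. RSAD2, or viperin, which makes a chain-terminating nucleotide, had the widest range, 1.95 in log2(CPM + 1). It was at 19.7, 36.4 and 79.2 CPM in TNF and at 24.7, 26.7 and 37.7 CPM with LED. All LED libraries lay between TNF 2 and TNF 14, and the log2 fold change was -0.60 ± 0.43 (SE, edgeR adjusted p = 0.447). OAS1, a smaller oligoadenylate synthetase, was at 35.8, 77.6 and 119 CPM in TNF and at 53.4, 48.3 and 70.9 CPM with LED. Its LED libraries also lay between TNF 2 and TNF 8, with a log2 fold change of -0.43 ± 0.37 (SE, edgeR adjusted p = 0.54). OASL, an oligoadenylate synthetase-like protein that lacks the enzymatic activity, was at 11.3, 35.2 and 36.9 CPM in TNF and at 22.8, 25.6 and 22.6 CPM with LED. Here TNF 8 and TNF 14 were close together and TNF 2 was the low library, and the log2 fold change was -0.23 ± 0.37 (SE, edgeR adjusted p = 0.759).

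**Figure D4:**
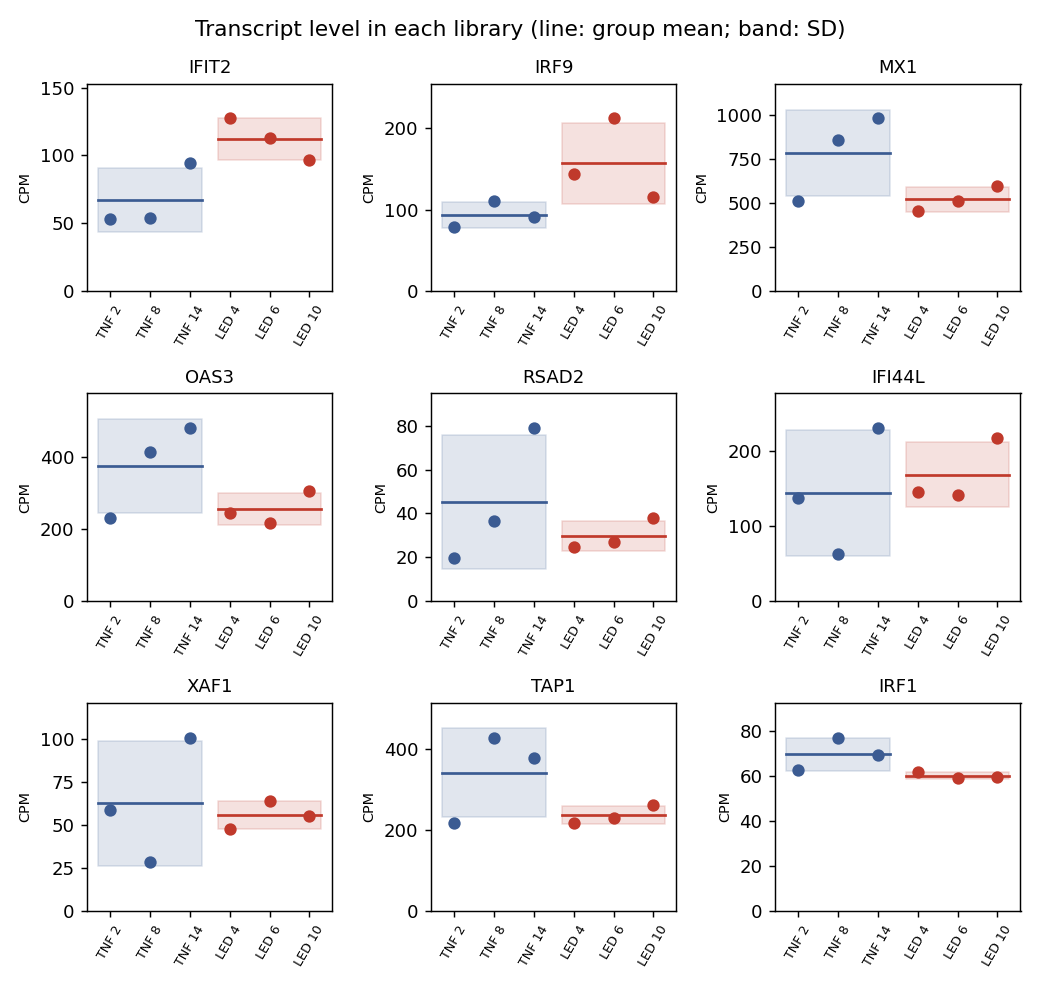
CPM by library for IFIT2, IRF9, MX1, OAS3, RSAD2, IFI44L, XAF1, TAP1 and IRF1 (vertical axes start at 0), with TNF and TNF plus LED libraries as points, group means as lines and the SD as a band. IFIT2 and IRF9 have LED libraries above every TNF library, and RSAD2 has all LED libraries between TNF 2 at 19.7 and TNF 14 at 79.2 CPM.

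The remaining effectors are given by range. OAS2 was at 87.5 to 246 CPM in TNF and 96.0 to 139 CPM with LED. MX2, which blocks nuclear entry of viral capsids, was at 54.8 to 113 and 59.1 to 85.3 CPM. BST2, or tetherin, which holds budding virions at the cell surface, was at 32.2 to 89.1 and 40.5 to 58.7 CPM. In these 3 genes every LED library lay between TNF 2 and TNF 14, and edgeR adjusted p-values were 0.389, 0.583 and 0.653.

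IFIT2 was the 1 effector of the 13 that was fitted higher, and it did not pass the edgeR test. The IFIT proteins bind viral RNA, and IFIT2 works in a complex with IFIT1 and IFIT3. IFIT2 was at 52.9, 53.9 and 94.2 CPM in TNF and at 127, 113 and 96.7 CPM with LED. All 3 LED libraries lay above all 3 TNF libraries, although LED 10 was only just above TNF 14. The means were 67.0 ± 23.6 and 112 ± 15.4 CPM (SD, n = 3 each), the log2 fold change was 0.74 ± 0.25 (SE, 95% interval 0.18 to 1.30), and the edgeR adjusted p was 0.117. Groups that do not overlap in the higher direction were found for 16.2% of all tested genes. The edgeR adjusted p of IFIT2 ran from 0.0663 to 0.31 over the omissions of single libraries. IFIT1 and IFIT3 were chosen for comparison after their values were seen. IFIT1 was at 333, 470 and 696 CPM in TNF and at 485, 471 and 497 CPM with LED. IFIT3 was at 279, 268 and 523 CPM in TNF and at 321, 244 and 329 CPM with LED. In both, the LED libraries fell inside or close to the TNF range, with log2 fold changes of -0.04 ± 0.25 and -0.26 ± 0.27 (SE) and edgeR adjusted p of 0.937 and 0.624.

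A ratio of genes within a library removes only what moves both genes alike. There were 5 ratios computed, all chosen after the values were seen. With 3 libraries against 3, the exact two-sided permutation test over 20 splits cannot give a p below 0.1. IFIT2 over IFIT3 was 0.19, 0.201 and 0.18 in TNF and 0.397, 0.461 and 0.294 with LED, a 1.99-fold difference of the geometric means with an exact permutation p = 0.1 (0.167 adjusted over the 5). The 3 TNF libraries were close together in this ratio (log2 SD 0.08), although IFIT3 itself varied by 1.95 times among them. The LED libraries were further apart in it (log2 SD 0.33). As the smallest possible p was 0.1, no ratio could pass 0.05, and the ratios are given as a description. IFIT2 and IRF9, the numerators of all but IFIT1 over IFIT3, were the members whose own groups did not overlap in the higher direction. IFIT2 over IFIT1 was 1.7-fold higher with LED (exact permutation p = 0.1), and the ratio of IFIT1 to IFIT3 gave p = 0.4 in the exact permutation test. LIPA, a lysosomal lipase gene on the opposite strand, overlaps IFIT1, IFIT2 and IFIT3 in GENCODE 29, and the strandedness of the counting was not given in the sources used here. LIPA was at 85.9, 97.0 and 97.4 CPM in TNF and at 57.9, 56.3 and 68.6 CPM with LED (log2 fold change -0.62 ± 0.17 SE, edgeR adjusted p = 0.0637). LIPA, IFIT1 and IFIT3 were fitted lower and IFIT2 higher. The part of shared counts in these levels and ratios was not tested.

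**Figure D5:**
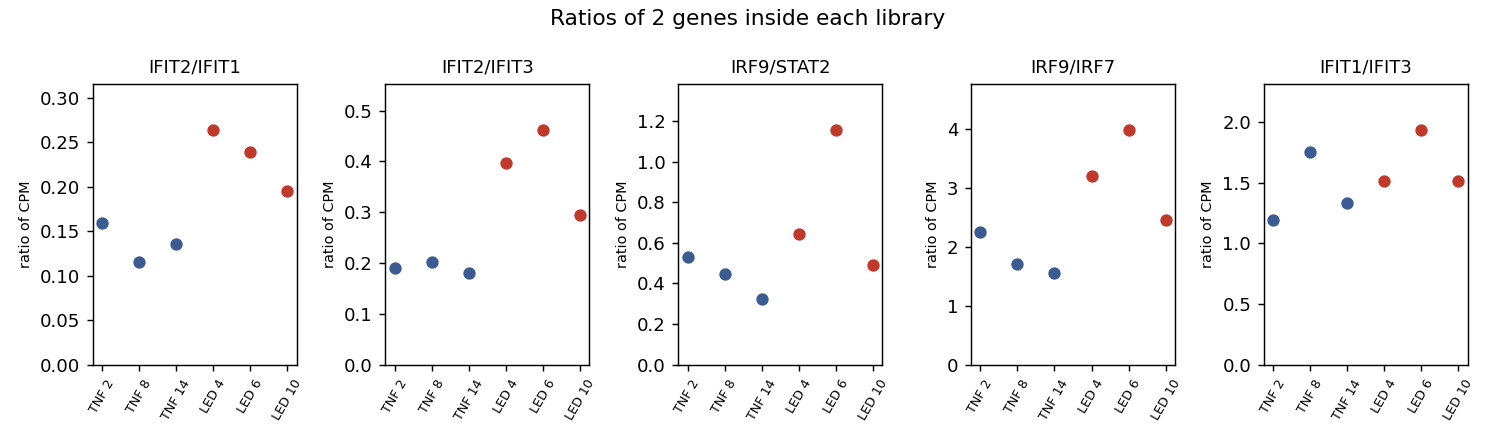
Ratios of CPM within each library for the gene pairs IFIT2/IFIT1, IFIT2/IFIT3, IRF9/STAT2, IRF9/IRF7 and IFIT1/IFIT3 (1 panel each, linear axes from 0), by library and group. The IFIT2/IFIT3 points lie between 0.18 and 0.201 in TNF and between 0.294 and 0.461 with LED.

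None of the 4 transcription factors of the pathway was called, and 3 of them were fitted lower and IRF9 higher. IRF9, the DNA-binding part of ISGF3, was at 78.8, 111 and 91.1 CPM in TNF and at 143, 213 and 116 CPM with LED. All LED libraries lay above all TNF libraries, with LED 6 the highest and LED 10 just above TNF 8. The means were 93.6 ± 16.2 and 157 ± 50.0 CPM (SD, n = 3 each), and the log2 fold change of 0.75 ± 0.25 (SE, 95% interval 0.20 to 1.30) had an edgeR adjusted p of 0.112. Without LED 6 the log2 fold change was 0.47 with an edgeR adjusted p of 0.309. IRF9 overlaps the gene model AL136295.5, so the split of counts there is uncertain. STAT2, its partner, was at 149 to 280 CPM in TNF and 184 to 234 CPM with LED, and IRF7, which amplifies interferon production, at 35.0 to 64.8 and 44.8 to 53.5 CPM; both groups overlapped. IRF9 over IRF7 was 2.25, 1.71 and 1.54 in TNF and 3.20, 3.97 and 2.45 with LED, 1.74-fold higher with LED (exact permutation p = 0.1), with non-overlapping groups. IRF9 over STAT2 was 0.53, 0.448 and 0.325 in TNF and 0.644, 1.16 and 0.493 with LED, and here the groups overlapped (exact permutation p = 0.2). In TNF 14 the log2 deviation from the mean over libraries was -0.38 for IRF9, 0.38 for STAT2 and 0.24 for IRF7. The ratios of IRF9 therefore also carry the library pattern of their denominators. IRF1, which responds to IFN-γ and TNF, was at 62.6, 77.0 and 69.1 CPM in TNF and at 61.8, 59.2 and 59.6 CPM with LED. Its TNF libraries were all above its LED libraries, by a narrow margin, as were those of IFIT5, and lower non-overlapping groups were found for 16.2% of all tested genes. Both were singled out after their values were seen, with edgeR adjusted p of 0.488 for IRF1 and 0.358 for IFIT5.

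The ISG15 pathway is that of a ubiquitin-like protein, with HERC5 as its ligase and USP18 as the protease that removes it and also restrains the receptor. USP18 was at 84.8, 159 and 148 CPM in TNF and at 89.3, 104 and 97.7 CPM with LED, with TNF 2 below all LED libraries and the other two TNF libraries above them. Its log2 fold change was -0.43 ± 0.24 (SE, edgeR adjusted p = 0.324). ISG15 was at 226 to 476 CPM in TNF and 266 to 327 CPM with LED, and HERC5 at 6.05 to 18.4 and 12.1 to 13.6 CPM; neither passed the test. Per kilobase of union exon, mean levels in TNF were highest for ISG15 (400 CPM per kb) and IFI6 (387), followed by IFIT3 (135) and IFIT1 (108), and lowest for ISG20 (1.57). The cytosolic RNA sensors DDX58 (RIG-I) and IFIH1 (MDA5) had fitted log2 fold changes of -0.29 and 0.21, and neither passed the test. DDX58 was at 116, 136 and 249 CPM in TNF and at 140, 123 and 146 CPM with LED. IFIH1 was at 73.5, 70.3 and 132 CPM in TNF and at 104, 102 and 113 CPM with LED. In both sensors TNF 14 was the high library, and the LED libraries differed from each other by less than the TNF libraries did.

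Other type I interferon-induced genes included 6 members. IFI6, a mitochondrial and endoplasmic reticulum protein, was at 190 CPM in TNF 2 against 407 and 406 CPM in TNF 8 and TNF 14, and at 187, 211 and 276 CPM with LED. TNF 2 was thus among the LED libraries, and the log2 fold change was -0.58 ± 0.29 (SE, edgeR adjusted p = 0.284). IFI27 was at 16.2, 26.9 and 33.9 CPM in TNF and at 14.0, 18.3 and 20.5 CPM with LED (log2 fold change -0.55 ± 0.27 SE, edgeR adjusted p = 0.276). IFI35 was at 73.2, 117 and 128 CPM in TNF and at 68.9, 79.2 and 77.3 CPM with LED (log2 fold change -0.50 ± 0.22 SE, edgeR adjusted p = 0.221). In both genes only TNF 2 overlapped the LED group. IFI44L and XAF1, the latter a pro-apoptotic factor, had a different low library. IFI44L was at 137, 62.5 and 231 CPM in TNF and at 145, 142 and 218 CPM with LED (log2 fold change 0.23 ± 0.40 SE, edgeR adjusted p = 0.779). XAF1 was at 58.6, 28.3 and 101 CPM in TNF and at 47.7, 63.8 and 55.3 CPM with LED (log2 fold change -0.17 ± 0.38 SE, edgeR adjusted p = 0.832). TNF 8 was the lowest of the 6 libraries in both, TNF 14 the highest, and the LED libraries lay between them. IFI44 had the same low library among the TNF group, at 65.6, 61.5 and 103 CPM in TNF and 84.1, 101 and 96.6 CPM with LED, and did not pass the test (edgeR adjusted p = 0.483).

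TAP1, a subunit of the peptide transporter that loads MHC class I, was at 217, 427 and 378 CPM in TNF and at 218, 230 and 262 CPM with LED. TNF 2 lay just below the lowest LED library and the other TNF libraries lay above all of them (log2 fold change -0.53 ± 0.25 SE, edgeR adjusted p = 0.245). TAP1 overlaps PSMB9 on the opposite strand, a neighbour that was fitted lower too, at -0.65 ± 0.24 (SE, edgeR adjusted p = 0.149). GBP1 and GBP2, guanylate-binding GTPases of the IFN-γ response, had log2 fold changes of -0.28 and 0.28, and neither passed the test. GBP1 was at 180 to 305 CPM in TNF and 172 to 209 CPM with LED, and GBP2 at 38.1 to 64.3 and 48.9 to 76.7 CPM, with groups that overlapped in both.

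The rest of the pathway was read from lists of other genes. Of 12 interferon ligands, 11 were not above the limit that a count of 0 allows in any library, 7 of them at 0 throughout. IFNB1 was at 0.0359, 0 and 0.0461 CPM in TNF and at 0, 0 and 0.083 CPM with LED, below that limit in all 6. IFNE, the 1 ligand tested, was at 0.915, 0.0492 and 0.761 CPM in TNF and at 0.821, 1.62 and 1.57 CPM with LED, with overlapping groups (edgeR adjusted p = 0.403). Over all tested genes 2.44% were called higher and 2.73% lower, and the counts of 0 or 1 called in each list that follows are not read as results about the lists. Of 21 receptor and JAK-STAT genes, 18 were tested, 1 was called higher and 1 lower. IFNAR2, the high-affinity chain of the type I receptor, was at 47.4, 55.5 and 55.5 CPM in TNF and at 31.6, 33.7 and 34.8 CPM with LED. It was lower in every LED library than in any TNF library and fell by 0.66 ± 0.16 on the log2 scale (SE, edgeR adjusted p = 0.0478), and the edgeR adjusted p was over 0.05 without any 1 library, up to 0.205, and 0.0503 with RLE scaling. PTPN6, a phosphatase that restrains JAK signalling, was at 0 in all TNF libraries and at 0.746, 0.129 and 0.332 CPM with LED (edgeR adjusted p = 0.0331). The LED mean of 0.402 CPM was 3.31 times the TNF group's mean floor of 0.121 CPM. These PTPN6 levels lie close to the limit of detection, LED 6 being under the highest TNF floor of 0.138 CPM. PTPN6 passed the filter on low counts only through the LED group, so its call is given as a description. It did not pass the filter when counts were divided by 4 or a CPM of at least 1 was required, and the edgeR adjusted p was over 0.05 without any 1 library except TNF 2, up to 0.122. IFNAR1 had a log2 fold change of -0.23 ± 0.23 (SE, edgeR adjusted p = 0.605), JAK1 of 0.15 ± 0.18 (adjusted p = 0.669) and TYK2 of -0.51 ± 0.17 (adjusted p = 0.117). TYK2 was lower in every LED library (51.63 to 62.01 CPM) than in any TNF library (74.25 to 91.6 CPM), as were 16.2% of all tested genes.

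Of 22 nucleic acid sensing genes, 20 were tested, 13 were fitted lower and 1 was called lower. Over all tested genes 49.2% were fitted lower, the share to set beside this and the lists that follow. DHX58 (LGP2), which regulates the RNA sensors, was at 14.0, 23.5 and 27.2 CPM in TNF and at 7.66, 9.12 and 12.1 CPM with LED. It fell below every TNF library in all 3, by 1.17 ± 0.28 on the log2 scale (SE, edgeR adjusted p = 0.0464), with edgeR adjusted p over 0.05 without TNF 8, TNF 14 or any LED library, up to 0.177. The DHX58 call was also lost with limma-voom (adjusted p = 0.0535) and without TNF 8 and LED 6 together (edgeR adjusted p = 0.227). Of 43 further interferon-stimulated genes, all were tested, none was called, 34 were fitted lower with a median of -0.26, and TNF 14 was the highest of the 6 libraries for 32. The lowest p-values among them were those of CMPK2, a mitochondrial nucleotide kinase next to RSAD2, and RTP4. CMPK2 was at 41.9, 116 and 121 CPM in TNF and at 29.9, 30.6 and 48.5 CPM with LED (log2 fold change -1.36 ± 0.38 SE, edgeR adjusted p = 0.0724). RTP4 was at 2.23, 5.30 and 6.00 CPM in TNF and at 2.00, 1.75 and 2.04 CPM with LED (log2 fold change -1.22 ± 0.36 SE, edgeR adjusted p = 0.0834). CMPK2 overlaps RSAD2 on the opposite strand, and the counts of both are uncertain for that reason. Of 31 antigen processing and IFN-γ target genes, 28 were tested, 23 were fitted lower and 1 was called lower. The called gene was ICAM1, an adhesion molecule that TNF also induces. It was at 370, 620 and 559 CPM in TNF and at 216, 233 and 235 CPM with LED, a fall of 1.18 ± 0.21 on the log2 scale (SE, edgeR adjusted p = 0.0222). Without TNF 14, LED 4, LED 6 or LED 10, its edgeR adjusted p lay over 0.05, up to 0.102.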

How the data were processed

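RNA was ribosome-depleted, heat-fragmented and randomly primed, per the labels' protocols. The deposited table holds estimated counts per gene as whole numbers. Tools listed in the submitters' processing notes, with no roles, are HISAT2, StringTie, bcl2fastq 2.0, limma and DESeq2. The notes also list mm10, although the samples and symbols are human, so the human build and the strandedness are not given in the sources used here. Of values from 1 to 7, 41.8% equalled 4, the basis for about 4 units per fragment. The estimated counts deposited by the authors entered edgeR 4.0.16 (R 4.3.3) with filterByExpr, TMM and robust quasi-likelihood tests. The tests were two-sided, with Benjamini-Hochberg adjustment over 13794 genes and a threshold of 0.05. DESeq2 1.42.0 and limma-voom 3.58.1 were alternatives, beside other filters, scalings and omissions of libraries. No libraries of a group were duplicates (chi-square per degree of freedom of at least 102). Lengths and overlaps came from GENCODE 29, with coordinates from RefSeq only.

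Values in every library were given by rule for called members, for the 10 with the lowest p and for the 6 with the widest TNF range. From other interferon lists they were given for up to 4 called genes or the 2 with the lowest p, plus IFNB1 and IFNAR2. IFNAR1, JAK1 and TYK2 were also named by rule, but not with values in every library. A result that the rule also covers is not reported here. Genes outside the rule were chosen after their values were seen. Members and lists were chosen with earlier results of these data known. A pseudocount of 1 was used for log2(CPM + 1).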

Additional observations from a re-analysis of the deposited data

How the results depend on the processing

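No paired analysis was possible because the groups share no sample number. Over all genes, DESeq2 called 1753 and omitting TNF 8 and LED 6 together, an alternative added after the data were seen, called 1669; omitting single libraries called 80 (without LED 6) to 737, with 113 without TNF 14, 116 without LED 4 and 219 without LED 10. Members called higher were 2 with DESeq2 and 1 (IRF9, edgeR adjusted p = 0.0311) with both libraries omitted, and 0 under every other alternative run; none was called lower in any. The count of members whose TNF range exceeded the difference was 14 (without TNF 2) to 31 over single omissions. The median log2 fold change lay between -0.51 and 0.02 over all alternatives, the upper end without TNF 14. Log2 fold changes turned sign with limma-voom for IFIT1 (0.0201) and XAF1 (0.0077), and without both TNF 8 and LED 6 for STAT2 (0.0954), IFI44L (-0.0154) and GBP2 (-0.0476). Over single omissions, 9 turned positive without TNF 14, the upper end of their range in each case: IFIT1 (-0.2841 to 0.2703), IFIT3 (-0.4291 to 0.1232), OAS1 (-0.785 to 0.0191), OASL (-0.6238 to 0.0264), RSAD2 (-0.9766 to 0.083), BST2 (-0.6016 to 0.1485), DDX58 (-0.5137 to 0.1118), STAT2 (-0.3192 to 0.107) and XAF1 (-0.5189 to 0.3542). STAT2 was also above 0 without LED 6 (0.0191). HERC5 ran from -0.1313 (without TNF 2) to 0.7426, IRF7 from -0.368 to 0.0447 (without TNF 8), and IFI44L from -0.1293 (without TNF 8) to 0.7524, with -0.0014 without LED 10. The cause was not tested. CMPK2 and RTP4 passed the threshold with DESeq2 and without TNF 2 (edgeR adjusted p = 0.0127 and 0.0189). Counting precision is about that of fragments, the deposited counts over 4.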
